A study of Rattus norvegicus with 9 samples.

Results

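Ch25h, Hmgcs1, Insig1, Sqle, Idi1 and Abca1 are 6 genes of sterol metabolism, followed here in rat cortical neurons after their firing was released from block. Every array probe that the files name for one of these genes was taken, which gave 11 probes of the 41012 on the array: 4 for Insig1, 2 each for Hmgcs1 and Idi1, and 1 each for Ch25h, Sqle and Abca1. All 11 stood well above background on all 9 arrays, none was saturated, and all passed the filter on dim probes. The genes were chosen by a list drawn up with earlier results of these same arrays in view, among them the rise of Ch25h at 45 min, so their values are given as a description and no p-value is attached to them.

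The neurons were dissociated from the cortices of prenatal rat pups, grown in Neurobasal with either B27 or NS21 as supplement, and used after 11 to 15 days. Every culture spent 48 h in the sodium channel blocker tetrodotoxin (TTX), which silences action potentials. One group was collected in TTX, and the other groups 15 min or 45 min after 3 washes had removed it, with 3 single-colour arrays per group and no group that never saw the toxin. Whether replicates came from separate cultures is not labelled, so any p-value measures only the spread between these samples, which may be technical.

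Ch25h encodes cholesterol 25-hydroxylase, the enzyme that makes the oxysterol of that name from cholesterol. That oxysterol binds the INSIG proteins, which hold the SREBP transcription factors in the endoplasmic reticulum and so lower the transcription of cholesterol synthesis genes, and it is also a ligand of the LXR receptors, which raise cholesterol efflux genes. In mouse macrophages Ch25h is known as an interferon-stimulated gene. Hmgcs1, Idi1 and Sqle encode enzymes of cholesterol synthesis, Insig1 encodes one of the INSIG proteins, and Abca1 encodes a cholesterol efflux pump that is a classical LXR target.

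The sequences that matter here are the probes that gave the signals and the Ch25h promoter. The single Ch25h probe lies at chr1:238621362-238621421 on the minus strand of rn3, and the 2 Hmgcs1 probes, whose differences from TTX had opposite signs, lie at chr2:51680037-51680096 and chr2:51682653-51682711 on the plus strand. No annotation of that build was used, so their place in exon or UTR is not given. The first 30 bases of each are shown, with no base singled out.
Ch25h probe: cctgtgtgccggcagtgagagctgcttgga
Hmgcs1 brighter probe: ctgtatgttttgaaaagaataatttaacgt
Hmgcs1 dimmer probe: tattccccagtgttcaatagattcactctt

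The 250 bases before the Ch25h start site in RefSeq (GRCr8, chr1:241429367-241429616, minus strand) hold 1 copy of the cAMP response element TGACGTCA, shown in capitals, at positions −77 to −70 from the start.
Ch25h promoter: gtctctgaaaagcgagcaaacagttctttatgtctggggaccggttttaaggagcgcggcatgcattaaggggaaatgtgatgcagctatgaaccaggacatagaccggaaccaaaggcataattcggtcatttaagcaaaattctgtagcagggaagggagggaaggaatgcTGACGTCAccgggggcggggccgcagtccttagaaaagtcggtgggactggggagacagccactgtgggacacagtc

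Promoters were at hand for 5 of the 6 genes, Sqle being the one without. Searched on both strands, TGACGTCA was in the Ch25h promoter and in none of the other 4, against 1.59% of 33469 rat promoters of this length. The sterol regulatory element TCACNCCAC was in 0 of the 5 and in 0.974% of all promoters. The CCAAT box was in the promoters of Hmgcs1, Idi1 and Insig1 and in 34.0% of all. A match describes letters in this window and not a bound site.

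Ch25h was higher at 45 min, the rise that was known when the 6 genes were chosen. Levels are log2 signals relative to the array's 75th percentile, so a value below 0 is a signal under that percentile. In TTX the 3 arrays gave −5.16, −5.44 and −5.09, a mean of −5.23 ± 0.19 (SD, n = 3). At 15 min they gave −4.91, −4.81 and −4.92, a mean of −4.88 ± 0.06 (SD, n = 3). At 45 min they gave −1.79, −1.80 and −2.12, a mean of −1.90 ± 0.19 (SD, n = 3). The order was therefore TTX, 15 min, 45 min, with no overlap between any pair of groups.

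On the scanner's own linear scale, before scaling, the Ch25h signals were 47.6, 39.2 and 68.9 in TTX, 51.2, 57.5 and 58.9 at 15 min, and 494, 417 and 364 at 45 min. Before scaling the TTX and 15 min arrays overlapped, whereas the 45 min arrays stayed apart from both.

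Ch25h was 10.04-fold higher at 45 min than in TTX, a log2 difference of 3.33 ± 0.15 (SE), the tenth largest difference among 25787 genes or features. Between 15 and 45 min it was 7.87-fold higher, a log2 difference of 2.98 ± 0.15 (SE). The difference between TTX and 15 min was 0.35 ± 0.15 (SE) on the log2 scale, or 1.28-fold, and did not pass the threshold, an adjusted p of 0.05 in limma (Benjamini-Hochberg, all genes tested). Of the 6 genes, 0 passed it at 15 min against TTX, where 0.0233% of all genes did. At 45 min 1 passed, Ch25h, against TTX, where 0.202% of all genes did, and again against 15 min, where 0.132% did. Since Ch25h was selected on this contrast, nothing is read from those counts.

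One step of the processing ended that call. With normexp background correction, which adds 50 to every corrected signal, Ch25h was still higher at 45 min, by 2.44 on the log2 scale against TTX and by 1.74 against 15 min, but 0 of the 6 genes passed the threshold in either comparison. Arrays were spread over 3 slides, and on slide 1, which held 1 array of each group, Ch25h differed by 0.24 at 15 min and 3.37 at 45 min from TTX. Between 15 and 45 min it differed by 3.13 on slide 1 and by 2.90 on slide 3. Both of the other TTX arrays were on slide 2, which held no other group.

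**Figure D1:**
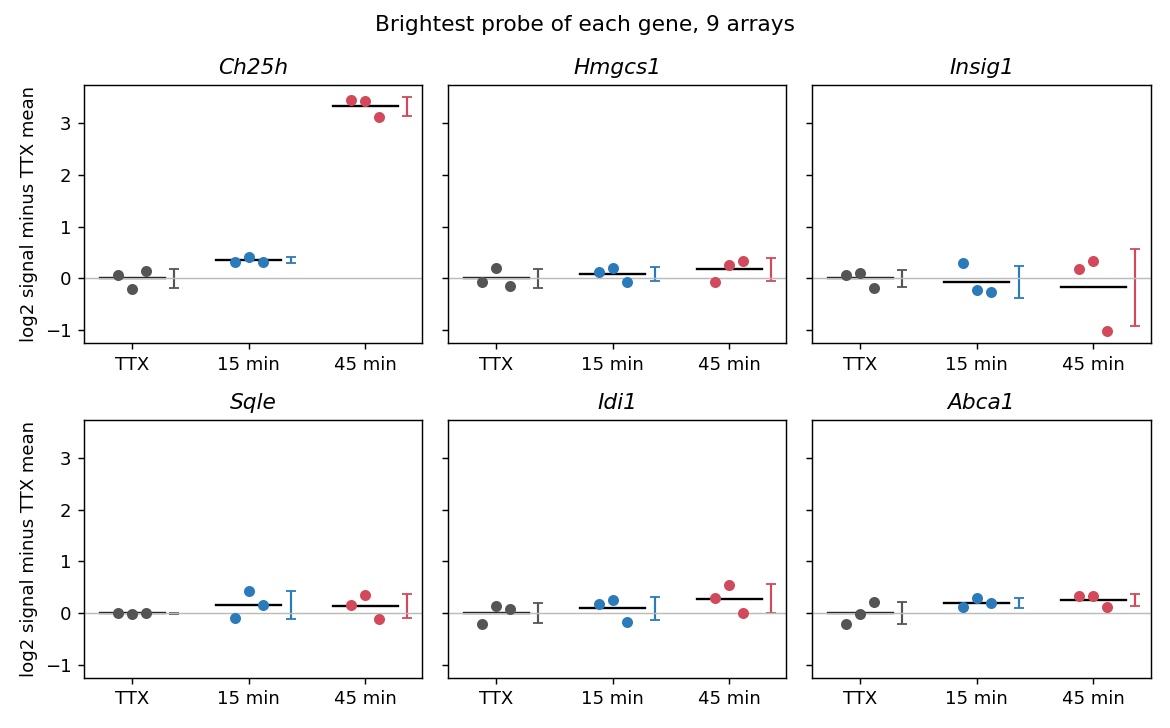
Log2 signal of the brightest probe of each of the 6 genes, minus that gene's TTX mean, in the 3 groups (x axis). Points are arrays, black lines group means and bars beside them ± 1 SD (n = 3). The Ch25h arrays at 45 min lie on average 3.33 above the TTX mean, and the mean differences of the other 5 genes lie between −0.17 and 0.28.

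Hmgcs1, the cytosolic synthase that makes HMG-CoA for the pathway, is the first enzyme of the 6 in the order of synthesis. Its brighter probe read 6.87, 7.14 and 6.78 in TTX, 7.05, 7.14 and 6.86 at 15 min, and 6.86, 7.19 and 7.26 at 45 min. The groups overlapped, and the log2 difference at 45 min was 0.17 ± 0.16 (SE), about its own error. The dimmer probe read 3.70, 3.84 and 3.45 in TTX, 3.101, 3.69 and 3.38 at 15 min, and 3.27, 3.34 and 4.09 at 45 min. Its log2 differences from TTX were −0.28 at 15 min and −0.10 at 45 min, each ± 0.24 (SE), so the probes of this gene disagreed in sign against TTX, within about their errors. Between 15 and 45 min both were positive, at 0.08 and 0.18.

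Idi1, the isomerase that interconverts the isoprenoid building blocks, was measured by probes at chr17:72568057-72568116 and chr17:72570927-72571331 (rn3, minus strand). The brighter one read 4.11, 4.47 and 4.41 in TTX, 4.51, 4.59 and 4.17 at 15 min, and 4.62, 4.88 and 4.33 at 45 min. Its log2 difference at 45 min was 0.28 ± 0.19 (SE), with overlapping arrays. The dimmer probe read 2.98, 3.13 and 3.06 in TTX, 3.21, 3.47 and 3.15 at 15 min, and 3.59, 3.47 and 3.00 at 45 min. On that probe alone the 15 min arrays all lay above the TTX arrays, by 0.22 ± 0.17 (SE) in log2, while the 45 min arrays overlapped with TTX through replicate 3. A separation of TTX and 15 min, in either direction, was seen in 14% of all genes, so no rise is read from this probe.

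Sqle, the squalene epoxidase that catalyses the first oxygenation step of sterol synthesis, has its probe at chr7:96145679-96145738 (rn3, plus strand). It read 4.603, 4.602 and 4.617 in TTX, 4.51, 5.03 and 4.76 at 15 min, and 4.77, 4.96 and 4.49 at 45 min. The TTX arrays were close together, with an SD of 0.01, and both later groups spread to either side of them. The log2 differences from TTX were 0.16 at 15 min and 0.13 at 45 min, each ± 0.17 (SE).

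Insig1, the SREBP-retaining protein and itself an SREBP target, was read by 4 probes between chr4:2577508 and chr4:2578760 (rn3, minus strand). The brightest gave 5.16, 5.21 and 4.92 in TTX, 5.39, 4.87 and 4.84 at 15 min, and 5.27, 5.44 and 4.08 at 45 min. Its log2 difference at 45 min was −0.17 ± 0.33 (SE), and the low value of replicate 3 set that sign: without that array the difference was 0.26. On the other 3 probes that array read 3.66, 2.49 and 1.40, beside 3.66, 2.26 and 1.03 on replicate 1 of the same group. Their log2 differences at 45 min from TTX were 0.21 ± 0.16 (SE), 0.28 ± 0.14 (SE) and 0.16 ± 0.17 (SE), from the brightest to the dimmest.

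One of those 3 Insig1 probes separated the later groups. It read 2.08, 2.13 and 2.13 at 15 min and 2.26, 2.65 and 2.49 at 45 min, a log2 difference of 0.35 ± 0.14 (SE). Its TTX arrays, at 2.32, 2.25 and 2.01, overlapped with both. Such a separation between 15 and 45 min was seen in 8.11% of all genes. The dimmest Insig1 probe differed by 0.36 ± 0.17 (SE) between 15 and 45 min, with overlapping arrays.

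**Figure D2:**
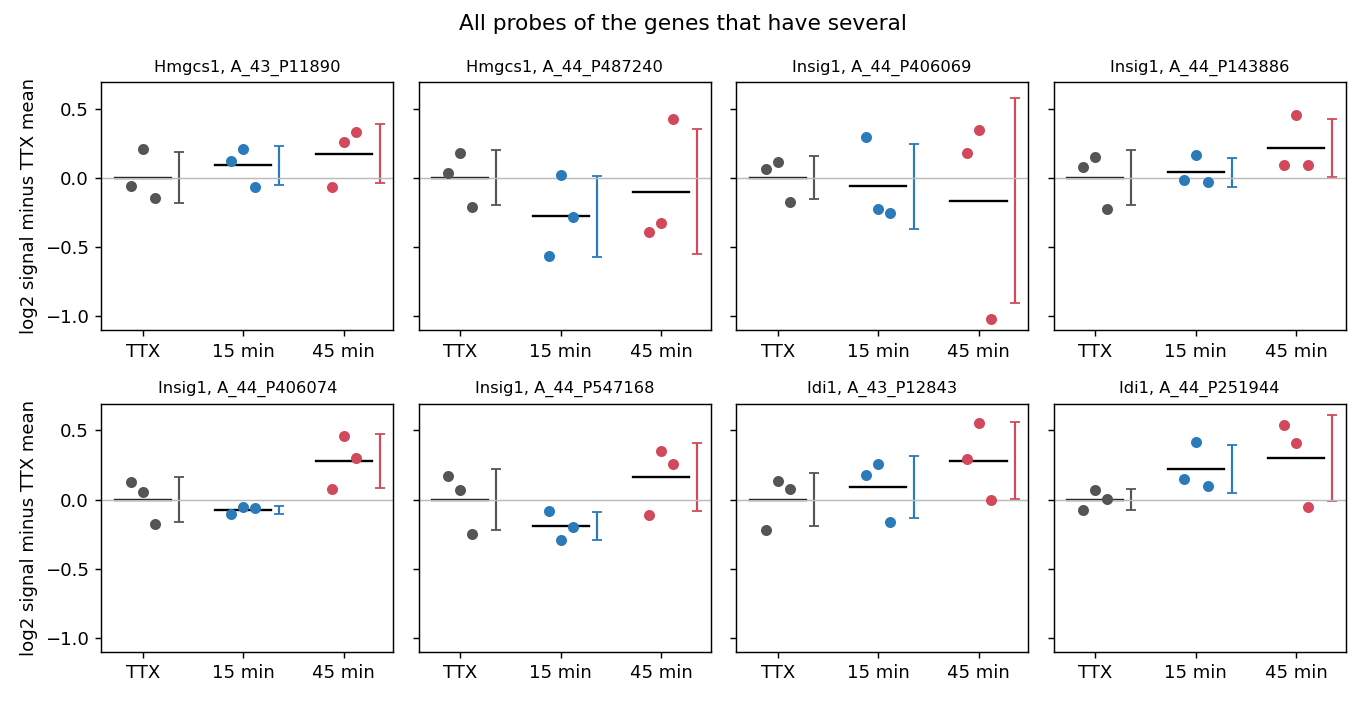
Log2 signal minus the TTX mean (y axis) for each of the 8 probes of Hmgcs1, Insig1 and Idi1, in the 3 groups. Points are arrays, black lines group means and bars ± 1 SD (n = 3). The 45 min array of replicate 3 is low on the brightest Insig1 probe and not on the other 3.

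Abca1, the efflux pump, has its probe at chr5:70498726-70498785 (rn3, minus strand). It read −1.53, −1.35 and −1.11 in TTX, −1.22, −1.03 and −1.13 at 15 min, and −0.999, −1.005 and −1.22 at 45 min. The groups overlapped through TTX replicate 3, and the log2 differences from TTX were 0.20 at 15 min and 0.26 at 45 min, each ± 0.14 (SE). On slide 1 alone they were 0.40 and 0.53, and with slide as a fixed block 0.44 and 0.49, values for which TTX replicate 1 is the sole TTX array that counts. Without scaling between arrays they were −0.0045 and −0.0073.

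The direction of the small differences depended on scaling for other genes too. Without scaling, the 45 min difference was −0.09 for Hmgcs1 and −0.13 for Sqle, and the median of all genes was then −0.21, against 0.05 with scaling. By their brightest probes, 1 of the 6 genes had arrays that did not overlap between groups in each comparison, Ch25h every time, where 14% of all genes did at 15 min and 11.7% at 45 min against TTX, and 8.11% between 15 and 45 min. Over the 6, the median difference from TTX was 0.13 (15 min) and 0.21 (45 min), beside 0.06 and 0.05 over all genes.

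The other genes of the pathway were taken from 5 lists with 56 genes besides the 6, of which 53 were tested. In limma 0 of the 53 passed the threshold in any of the 3 comparisons. Of all genes 0.0233% passed at 15 min and 0.202% at 45 min against TTX, and 0.132% between 15 and 45 min. With so few genes 0 is near those shares, so nothing is read from it. At an unadjusted p under 0.05 there were 1 higher and 1 lower at 15 min, 2 higher at 45 min against TTX, and 1 higher between 15 and 45 min, where 3.5%, 6.44% and 6.67% of all genes had such a p. The median log2 difference of the 53 was 0.04 in both comparisons with TTX and 0.10 between 15 and 45 min.

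Among 18 further sterol synthesis genes the median difference at 45 min from TTX was 0.05. Ebp, a sterol isomerase, had the lowest value there, −0.29 ± 0.23 (SE; limma adjusted p = 0.875). Msmo1, a sterol demethylation enzyme, was the 1 gene of the list whose 45 min arrays all lay above TTX. Its difference was 0.21 ± 0.13 (SE; limma adjusted p = 0.822), and it is named after its values were seen. In 0 genes of the list did they all lie below TTX. Of all genes 11.7% did not overlap in either direction, so nothing is read from that 1 gene.

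The SREBP control and sterol uptake list had 11 tested genes and a median of 0.01 at 45 min. Scap, the escort that carries SREBPs to the Golgi, gave 0.30 ± 0.13 (SE; limma adjusted p = 0.765). Srebf2, the SREBP that favours cholesterol genes, gave −0.48 ± 0.25 (SE; limma adjusted p = 0.790). Mylip, the ubiquitin ligase that degrades the LDL receptor, was −0.68 ± 0.25 (SE; limma adjusted p = 0.991) at 15 min from TTX, with arrays that did not overlap. It was 0.64 ± 0.25 (SE; limma adjusted p = 0.743) between 15 and 45 min, so neither passed. At 15 min the arrays did not overlap with TTX for 1 gene of the list higher and 1 lower, and for 14% of all genes.

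In the LXR and efflux list 9 of 9 genes had a positive difference from TTX at 15 min, with a median of 0.15, where 61.9% of all genes did, with a median of 0.06. At 45 min 6 of 9 did, with a median of 0.03, beside 60.0% and 0.05 over all genes. Without scaling 2 of 9 were positive at 15 min, with a median of −0.06, and 21.1% of all genes were, with a median of −0.15. Rxrb, a partner receptor of LXR, gave 0.30 ± 0.12 (SE; limma adjusted p = 0.991) at 15 min. Rxra, another such partner, gave 0.38 ± 0.16 (SE; limma adjusted p = 0.765) at 45 min, and Abcg4, a sterol transporter, 0.39 ± 0.20 (SE; limma adjusted p = 0.795). Of the 6 oxysterol enzymes and binding proteins tested, Cyp46a1, the neuronal cholesterol hydroxylase, gave 0.38 ± 0.26 (SE; limma adjusted p = 0.847) at 45 min. Cyp7b1, which breaks down oxysterols, gave −0.33 ± 0.37 (SE; limma adjusted p = 0.921), with 45 min arrays at −0.70, −0.31 and −2.07. Without the third of these, replicate 3, the Cyp7b1 difference was 0.19.

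The 9 lipogenic SREBP targets had a median of 0.13 at 45 min. Acly, which supplies acetyl-CoA, gave 0.29 ± 0.14 (SE; limma adjusted p = 0.771) and Fasn, the fatty acid synthase, 0.20 ± 0.11 (SE; limma adjusted p = 0.809). Of 10 interferon-stimulated genes, the list to which Ch25h is known to belong in mouse macrophages, 9 were tested. In limma 0 of the 9 passed the threshold in any comparison, where at most 0.202% of all genes did. An unadjusted p under 0.05 was found for 0 of the 9. Of all genes 3.5% had one at 15 min, 6.44% at 45 min and 6.67% between 15 and 45 min. With so few genes 0 is near those shares, so nothing is read from it. The median of the 9 was −0.05 at 15 min and −0.02 at 45 min. The lowest at 45 min was Cxcl10, a chemokine, at −0.34 ± 0.57 (SE). The Cxcl10 arrays in TTX read −6.84, −6.33 and −4.21, and without the third of these, replicate 3, its difference was 0.45.

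**Figure D3:**
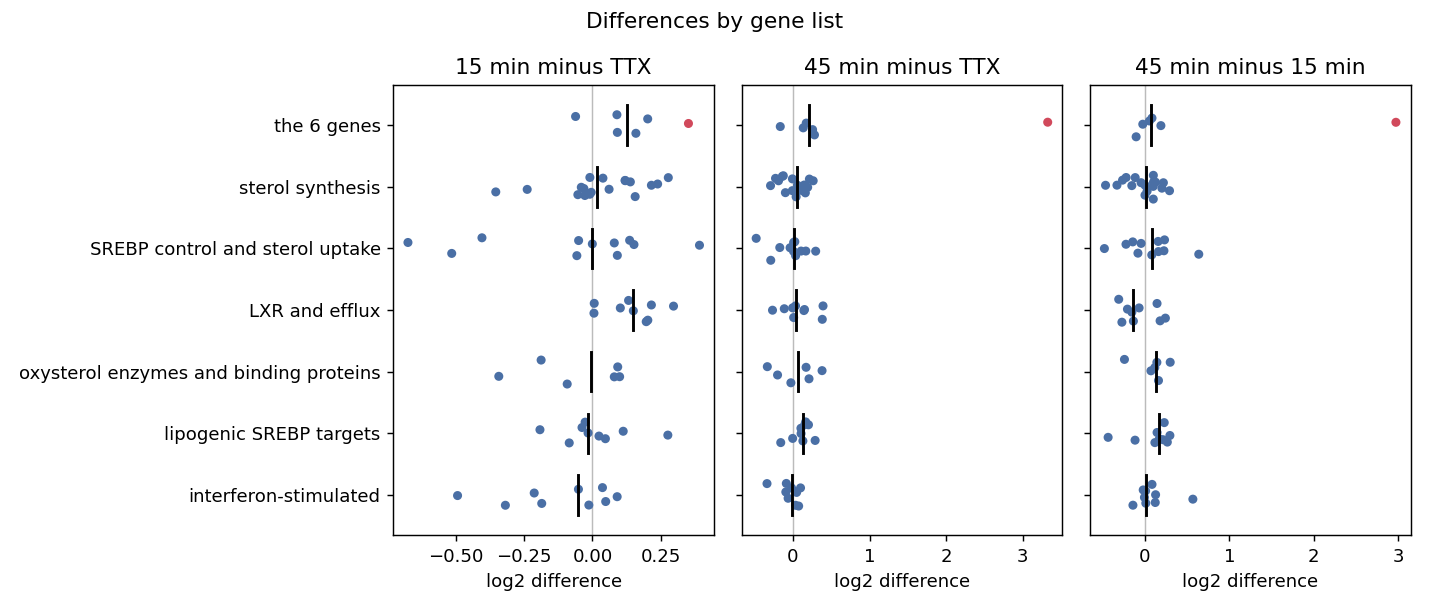
Log2 differences (x axes, scaled separately) of the 6 genes and of the tested genes of each list in the 3 comparisons. Points are genes, Ch25h in red, and black lines list medians. Ch25h lies apart at 3.33 and 2.98 in the comparisons of 45 min, while every other listed gene lies between −0.48 and 0.64 there.

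Over the 9 arrays the signals most like that of Ch25h, by Pearson's r among genes with a symbol, were those of Klf4 (0.994), Nr4a1 (0.993), Btg2 (0.993) and Dusp5 (0.993). They were followed by Dusp1 (0.985), Egr2 (0.983), Otud1 (0.982) and Edn1 (0.982). These correlations describe 9 arrays that form 3 groups, and a gene that differs mainly at 45 min will have a high r. At 45 min Nr4a1, an orphan nuclear receptor, was 4.203 above TTX in log2, and Klf4, a zinc finger factor, 2.27. At 15 min they were 0.45 and 0.12 above it.

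Fos, the immediate early transcription factor, had a lower r of 0.766, having already reached 4.87 above TTX at 15 min, and Arc, the synaptic immediate early gene, had 0.971. The other sterol genes had an r with Ch25h of 0.535 (Idi1), 0.521 (Abca1), 0.338 (Hmgcs1), 0.220 (Sqle) and −0.126 (Insig1).

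Promoters were at hand for 7 of the 8 genes most like Ch25h, and TGACGTCA was in 2 of them, against 1.59% of all promoters. An Egr motif, GCGNGGGCG, was in 3, those of Btg2, Dusp5 and Nr4a1, against 4.29% of all, and the serum response element was in 2, those of Dusp5 and Egr2, against 1.5%; neither was in the Ch25h promoter. The CCAAT box was in 2, the TATA box TATAAA in 2, against 12.9% of all, and the AP-1 motif TGANTCA in 0, against 6.34%. A stretch of 60 bases around each TGACGTCA is shown to set beside the Ch25h promoter, with the element in capitals. The one of Btg2, an antiproliferative gene, lies at chr13:48087858-48087917 on the minus strand, and that of Dusp1, a MAP kinase phosphatase, at chr10:17184703-17184762 on the plus strand (GRCr8).
Btg2 promoter stretch: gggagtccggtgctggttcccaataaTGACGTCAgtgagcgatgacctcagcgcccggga
Dusp1 promoter stretch: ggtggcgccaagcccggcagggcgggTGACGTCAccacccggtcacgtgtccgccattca

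**Figure D4:**
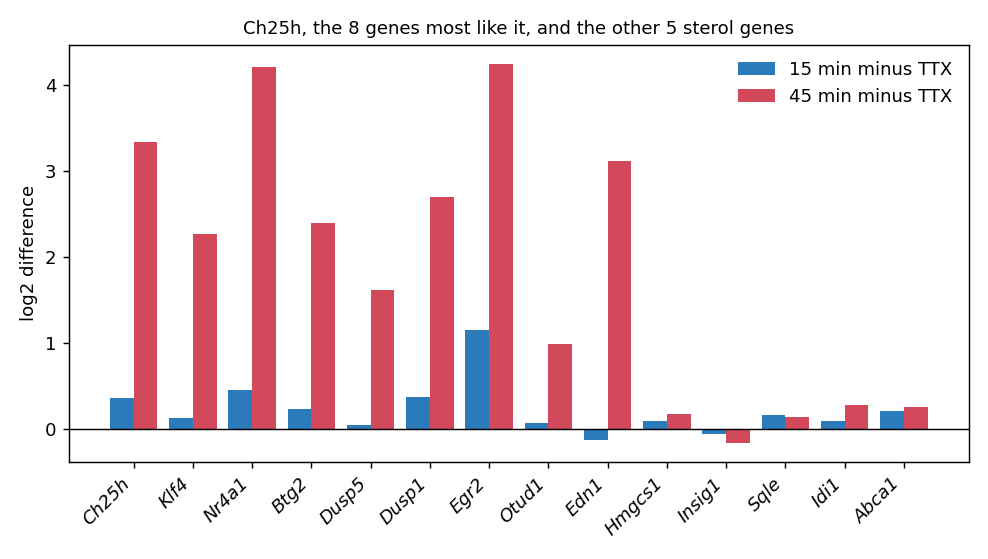
Log2 difference from TTX at 15 min and 45 min (y axis) for Ch25h, the 8 genes with the most similar signal and the other 5 sterol genes; bars start at 0 and show differences of group means (n = 3 each), without error bars. Ch25h and its 8 most similar genes are about 0.99 or more above TTX at 45 min, and the other 5 lie between −0.17 and 0.28.

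Between arrays of the same group, Pearson's r over all genes was 0.993 to 0.996 in TTX and at 15 min, and 0.984 to 0.989 at 45 min. The 45 min pairs with replicate 3 were the lowest, at 0.984 and 0.987. That array also had the lowest share of probes well above background, 72.4%. Per array, 72.4 to 77.9% of probes were well above background, and the signal at the 75th percentile ranged from 1456 to 2343. Marker genes were summed as linear signal relative to that percentile. The 8 neuron markers summed to 104 to 130 in TTX, 113 to 138 at 15 min and 101 to 130 at 45 min. The 6 astrocyte markers summed to 78.4 to 91.6, 81.7 to 88.8 and 67.3 to 96.7 in the same groups. Fewer cells of a type and less RNA per cell cannot be told apart in such samples.

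Of 7 microglia and macrophage markers, the cells in which Ch25h is best known, 4 were tested, and Aif1, Cx3cr1 and Itgam were below the filter. The 4 summed to 0.287 to 0.340 in TTX, 0.265 to 0.309 at 15 min and 0.145 to 0.308 at 45 min. Cd68, a lysosomal protein of macrophages, made up 68.1 to 92.1% of that sum, so it says little of the other 3. The Cd68 difference at 45 min from TTX was −0.71 ± 0.29 (SE; limma adjusted p = 0.765). Without 45 min replicate 3 the Cd68 difference was −1.10 ± 0.15 (SE; limma adjusted p = 0.0328) and passed the threshold. That array read −1.88, beside −3.18 and −2.90 on the other 45 min arrays. Since Cd68 was picked after its values were seen, nothing is read from that call. Of the 4 tested markers, 2 had a positive and 2 a negative difference at 45 min from TTX, with a median of 0.04. C1qa, a complement component, stood well above background on 3 arrays and passed the filter only through the 15 min group. Its difference from TTX there was 1.11 and, without TTX replicate 1, 0.53. The TTX signals were not well above background and the filter favoured the 15 min group, so no rise is read from these values. Of 5 endothelial markers 2 were tested, with sums of 0.0291 to 0.0398, 0.0256 to 0.0357 and 0.0257 to 0.0545. Of the marker lists for oligodendrocytes and fibroblasts all genes were tested, 5 and 4. The oligodendrocyte sums were 4.23 to 8.21 in TTX, 4.03 to 9.56 at 15 min and 3.64 to 7.92 at 45 min. The fibroblast sums were 1.37 to 1.47 in TTX, 1.54 to 1.72 at 15 min and 1.37 to 1.74 at 45 min. The 15 min sums all lay above TTX. All 4 fibroblast genes had a positive difference there, as did all 5 oligodendrocyte genes, where 61.9% of all genes did. By gene, 1 of the 4 fibroblast markers had arrays that did not overlap, beside 14% of all genes. In limma 0 of the 4 had an unadjusted p under 0.05 there, beside 3.5% of all genes. The part of these markers in the results was not tested. Which cells held the Ch25h RNA was not tested.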

How the data were processed

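Per the file headers, each deposited scanner file holds Cy3 spot intensities of an Agilent array (design 014879, probe positions in rn3), read with Feature Extraction 9.5.3.1, and the processed signal has had background subtracted. The deposited value table held the same intensities (largest difference 0). Control spots (1639 of 45018) and outlier spots (49 to 111 per array) were left out, spots of a probe averaged, and each log2 value was taken relative to its array's 75th percentile. The percentile was taken over probes in place of spots after both had been run and their counts seen: over probes 47 genes were higher and 5 lower at 45 min against TTX, over spots 48 and 6. Probes well above background on all 3 arrays of a group were kept (30322), and the brightest stood for its gene, which gave 25787 genes or features. Names came from the RefSeq table of GRCr8. All 9 arrays were fitted with limma 3.58.1 in R 4.3.3, without covariates, two-sided; the test was checked on simulated data. A permutation test of 3 against 3 cannot go below 0.1 and was not used. The genes, lists, motifs and tests were chosen with earlier results of these data known. The text names the 6 genes, list genes among the 3 with the largest absolute difference in their list, and the 8 genes most correlated with Ch25h. One gene that this rule names is not reported here. Cd68 and C1qa were named after their values were seen. Alternatives were scaling, background correction, filter, probe choice, slide, replicate block, spread and left-out arrays. Plots used Python 3.11.15 and matplotlib 3.10.9.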

Additional observations from a re-analysis of the deposited data

How the results depend on the processing

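Each count of calls was recomputed under 23 alternatives, 2 of which, the percentile over spots with and without normexp, were added after seeing the data. At 15 min 0 of the 6 genes passed in all 23, and 0 of the 53 other sterol genes passed in any comparison in all 23. In the main fit at most 0.202% of all genes passed, so nothing is read from those counts of 0. At 45 min 1 gene, Ch25h, selected for its rise there, passed in 21 of 23 against TTX and 21 of 23 against 15 min. In the remaining 2, both with normexp, the count was 0 in both comparisons, with the percentile over probes and over spots alike. The cause was not tested. Leaving out each array in turn left these counts between 1 and 1 at 45 min, and between 0 and 0 at 15 min. The Ch25h difference kept its sign in every alternative run, from 0.14 to 0.70 at 15 min, 2.44 to 3.43 at 45 min against TTX, and 1.73 to 3.13 between 15 and 45 min. With the replicate block the counts were 1, 1 and 0, as without it. Replicate numbers were not treated as pairs: deviations of same-numbered arrays correlated at 0.063 to 0.389 and those of other pairs at −0.380 to 0.089, although all 9 of 9 arrays matched best with their own number, a hint from the data and not the design. The median of all genes moved from 0.06 and 0.05 against TTX to 0.21 and 0.13 with normexp and −0.15 and −0.21 without scaling, so differences of that size have no settled direction. Signal over background and 3 arrays per group limit what could be detected.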
